A study of Mus musculus with 3 samples.

Results

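The galectin genes Lgals1, Lgals3, Lgals8 and Lgals9 and the galectin-binding protein gene Lgals3bp were followed across 3 libraries of ribosome-bound mouse brain RNA. They were chosen by symbol, with earlier results of these data known. Each of the 5 genes had a row among the 16610 genes of the deposited table. Lgals3bp is not a galectin itself, since it encodes a secreted scavenger receptor glycoprotein that galectins bind.

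Galectins are small proteins that bind sugars ending in galactose, such as the branched N-glycans of membrane and matrix proteins. They are made in the cytosol, leave cells without a signal peptide, and act both outside cells and on damaged organelles inside them. In injured brain, galectin-3 is widely used as a marker of activated microglia and macrophages, and galectin-1 has been described in reactive astrocytes.

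The groups were the left hemisphere of mice with middle cerebral artery occlusion (MCAO, a stroke model in which a brain artery is blocked), called the MCAO hemisphere here, the right hemisphere of such mice, called contralateral, and the right hemisphere of mice without MCAO, called control. The occlusion lasted 1 h, and all animals were killed after 3 days. Each group had 1 library, made from a pool of 3 animals with 2 technical replicates. RNA was taken from the middle section of the hemisphere by RiboTag pull-down, which precipitates an epitope-tagged ribosomal protein together with the transcripts it carries. The series title names astrocytes, while the labels give no driver line, strain, sex or age. No left hemisphere without MCAO was analysed here, so side and occlusion cannot be told apart. In these bulk libraries, fewer cells of a type and less RNA per cell cannot be told apart either.

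Values are normalised counts, that is, reads per gene divided by a size factor of the library. The depth recovered from the table was 25930258 reads in the MCAO hemisphere, 33886604 in the contralateral library and 31833456 in the control. With 1 library per group no difference has a replicate check and no p-value is given. Ratios carry 95% Clopper-Pearson intervals of the recovered reads, which cover counting error only. Genes were compared on the log2(value + 5) scale if their mean over the 3 libraries was at least 20, which held for 14906 genes and for all 5 members. A gene was counted as higher in the MCAO hemisphere if it was at least 2-fold above both right hemispheres on that scale.

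Promoter sequences are shown first for the 3 members that stood above both right hemispheres in the MCAO library by more than counting error and had an entry in the RefSeq promoter table (build GRCm38.p6). Lgals8, which was level, also had an entry, and Lgals1 is named only. The letters run 5′ to 3′ on the strand of the gene over the 250 bases before its start. Capitals mark matches to the interferon-stimulated response element (a pair of GAAA half-sites with NN between them), to its shorter core AANNGAAA, or to the Sp1 box GGGCGG, on either strand. The windows are chr11:78984925-78985174 (minus strand) for Lgals9, chr11:118401960-118402209 (minus strand) for Lgals3bp and chr14:47373610-47373859 (plus strand) for Lgals3.
Lgals9: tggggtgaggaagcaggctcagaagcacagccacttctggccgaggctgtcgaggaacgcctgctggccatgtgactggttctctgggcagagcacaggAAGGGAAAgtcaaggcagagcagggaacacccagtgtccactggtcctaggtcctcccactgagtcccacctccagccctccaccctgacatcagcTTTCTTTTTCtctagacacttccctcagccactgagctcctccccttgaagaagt
Lgals3bp: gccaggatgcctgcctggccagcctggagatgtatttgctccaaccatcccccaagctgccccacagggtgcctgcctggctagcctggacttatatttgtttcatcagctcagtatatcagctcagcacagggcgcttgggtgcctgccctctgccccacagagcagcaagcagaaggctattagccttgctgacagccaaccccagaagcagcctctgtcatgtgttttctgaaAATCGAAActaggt
Lgals3: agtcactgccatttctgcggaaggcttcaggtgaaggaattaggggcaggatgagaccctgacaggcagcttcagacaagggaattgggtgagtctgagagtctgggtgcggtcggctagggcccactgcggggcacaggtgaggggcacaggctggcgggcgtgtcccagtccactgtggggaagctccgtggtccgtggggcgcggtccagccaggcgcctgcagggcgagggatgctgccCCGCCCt

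Searches covered the window of 300 bases that also holds the first 50 bases after the start. For Lgals9, Lgals3bp and Lgals3 this start is the outer end of the listed gene. The Lgals8 entry (chr13:12461739-12461988, minus strand) lies inside the listed gene, which reaches to 12464977. Its window thus belongs to an internal start. Lgals9 had a response element at positions -55 to -46 and again at positions 16 to 25, counting the first base of the gene as 1. The second match is shown with its flanks (chr11:78984895-78984914, minus strand).
Lgals9 start region: tgtggTTTCTGTTTCctagc
The full element occurred in 3.44% of all 32851 RefSeq windows, and in 1 of the 4 windows of members. The shorter core, which overlaps both full matches in Lgals9, occurred in 23.9% of windows and was found in Lgals9 and, at positions -14 to -7, in Lgals3bp. The Sp1 box, in 35.7% of windows, was found in Lgals3 only among the 4, at positions -7 to -2 and 5 to 10. The Lgals3 window was also the richest in G and C of the 4, at 67.0%, against a median of 52.7% over all windows. None of the 4 windows held the STAT factor motif TTCNNNGAA, which 8.3% of all windows held, or the AP-1 motif TGANTCA, which 7.81% held. None held the myeloid PU.1 motif GAGGAAGT, with 3.2% of all windows, or the start box TATAAA, with 13.6%. These matches describe the letters of the windows, and no binding was measured.

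The first question was how the galectins stood in the hemisphere with the occlusion. Lgals1, Lgals3 and Lgals9 were higher there than in both right hemispheres, while Lgals8 was nearly level and Lgals3bp lay close to the 2-fold line. Thus 3 of 5 members were counted as higher, beside 2.58% of all genes, and none as lower, beside 0.517% of all genes. The members were chosen with earlier results of these data known, so these shares are a description. Set against the control alone the same count was 3, beside 4.12% of all genes. The median log2 difference of the 5 was 2.02 in the control comparison and 1.45 in the contralateral one, where the medians over all genes were -0.0027 and -0.0020.

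**Figure D1:**
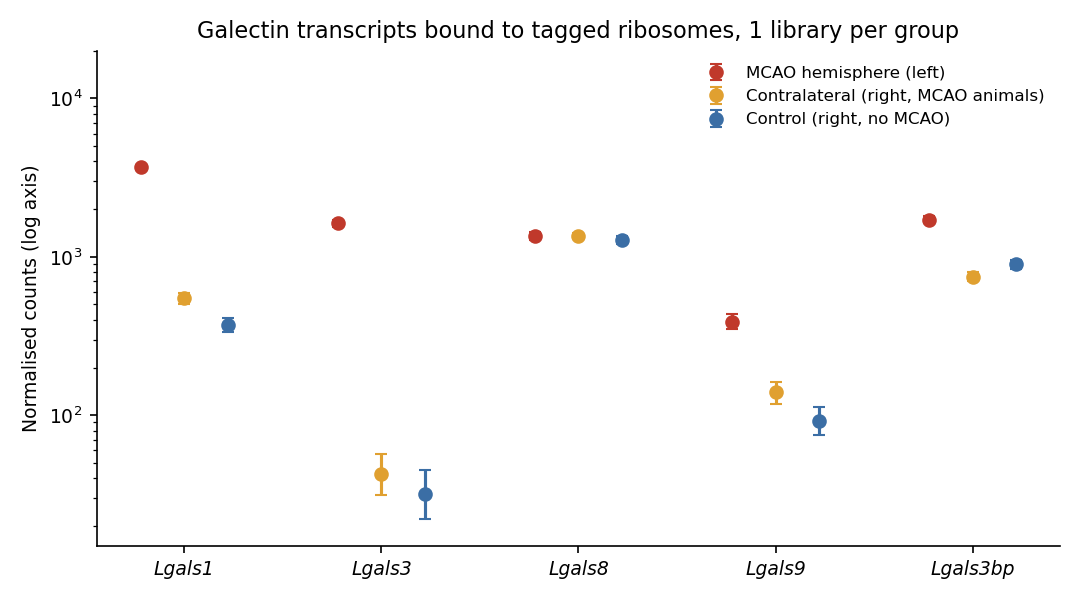
Normalised counts (log axis) of the 5 genes in each library, 1 point per library, with the 95% Poisson counting interval of the recovered reads as bars. The MCAO hemisphere lies far above both right hemispheres for Lgals1 and Lgals3, by less for Lgals9 and Lgals3bp, and level with them for Lgals8 (1356, 1354 and 1279).

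Lgals1 encodes galectin-1, a prototype galectin with a single carbohydrate-binding domain that works as a dimer (chromosome 15, 78926725 to 78930465). It had 3672 normalised counts in the MCAO hemisphere, 549 in the contralateral library and 369 in the control, from 3122, 619 and 381 reads. The MCAO library was thus high and the right hemispheres were low, with the control the lowest. The ratio was 9.95 to the control (8.94 to 11.1) and 6.69 to the contralateral library (6.13 to 7.30). On the log2 scale the differences were 3.30 and 2.73, at rank 44 and rank 55 from the top of the 14906 genes. RefSeq also lists a pseudogene copy of Lgals1 and a noncoding gene, Gm30368, that overlaps it, and no statement on strand was found, so the share of such reads is uncertain.

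Lgals3 encodes galectin-3, the only chimera-type galectin, whose carbohydrate-binding domain is joined to a flexible tail that lets it cluster on glycans (chromosome 14, 47373860 to 47386167). It had 1628 normalised counts in the MCAO hemisphere, 42.6 in the contralateral library and 32.0 in the control, from 1384, 48 and 33 reads. Both right hemispheres were near the low end of what the table lists, and the MCAO library stood far above them. The ratio to the contralateral library was 38.2 (28.7 to 52.1). The ratio to the control, 50.9 (36.1 to 74.3), rests on those 33 control reads. Its log2 differences of 5.47 and 5.10 had rank 7 and rank 4 from the top of all genes, the highest of the 5 members in both comparisons.

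Lgals9 encodes galectin-9, a tandem-repeat galectin with a pair of linked carbohydrate-binding domains, known as a ligand of the immune receptor TIM-3 (chromosome 11, 78962979 to 78984924). It had 389 normalised counts in the MCAO hemisphere, 139 in the contralateral library and 92.0 in the control, from 331, 157 and 95 reads. The order of the libraries was the one seen for Lgals1, over a smaller range. The ratio was 4.23 to the control (3.36 to 5.37) and 2.80 to the contralateral library (2.30 to 3.40). The log2 differences of 2.02 and 1.45 had rank 196 and rank 262 of all genes.

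Lgals8 encodes galectin-8, also of the tandem-repeat type, which detects glycans exposed on damaged endosomes and lysosomes (chromosome 13, 12439402 to 12464977). It had 1356 normalised counts in the MCAO hemisphere, 1354 in the contralateral library and 1279 in the control. The 3 libraries lay close together. The ratios were 1.06 to the control (0.979 to 1.15) and 1.00 to the contralateral library (0.927 to 1.08), so both counting intervals held 1. At 1153 or more reads per library, counting error would have left a 2-fold difference visible.

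Lgals3bp, whose product binds galectins, integrins and matrix proteins and is known as interferon-inducible (chromosome 11, 118392747 to 118401959), had 1711 normalised counts in the MCAO hemisphere, 749 in the contralateral library and 896 in the control. Here the contralateral library was the lowest. The ratio was 1.91 to the control (1.76 to 2.08) and 2.29 to the contralateral library (2.10 to 2.49). The log2 differences were 0.93 and 1.19, so the gene passed 2-fold against the contralateral library alone. In that comparison 4 of 5 members passed, beside 3.18% of all genes, and none was 2-fold lower, beside 4.96%.

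**Figure D2:**
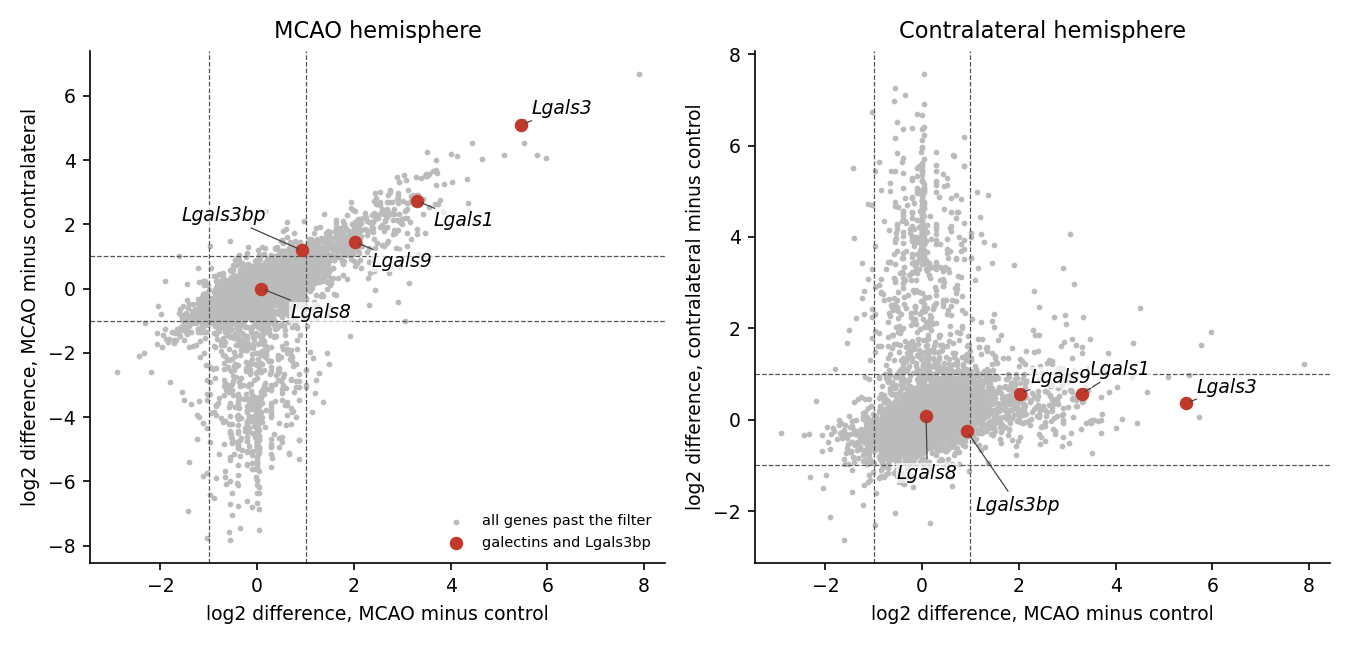
Log2 differences on the log2(value + 5) scale for 14906 genes (grey) and the 5 members (red), with dashed lines at 2-fold. Left, the MCAO hemisphere minus the contralateral library (vertical) against the MCAO hemisphere minus the control (horizontal), which share the MCAO library; right, the contralateral library minus the control (vertical). Lgals3 lies near the top right corner on the left at 5.47 and 5.10, and all 5 members lie within the 2-fold lines of the vertical axis on the right.

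The second question was whether galectins differed opposite the occlusion, in the right hemisphere of mice with MCAO. None of the 5 members was 2-fold higher or lower there than in the control, beside 5.17% of all genes higher and 0.362% lower. For so few genes an empty count would be usual at these shares too. Lgals1 was at 1.49 times the control (1.31 to 1.70) and Lgals9 at 1.51 times (1.17 to 1.97), both with intervals above 1. Lgals3bp was at 0.836 times the control (0.761 to 0.919), with an interval below 1. The intervals of Lgals3, at 1.33 times the control (0.838 to 2.14), and of Lgals8, at 1.06 times (0.982 to 1.14), held 1. For Lgals3 the 48 and 33 reads left even a 2-fold difference within counting error. The same contralateral library also held transcripts of male germ cells. All 7 listed germ cell genes, a list written after earlier results were known, were at least 2-fold higher there than in the control, with sums of 8102 and 29.1 normalised counts, and Tnp2 and Crisp2 were at the table's minimum of 1 in the control. Their part in the galectin values and in the share of 5.17% was not tested.

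No other gene of the galectin fold was counted as higher or lower in the MCAO hemisphere. Lgalsl, encoding a galectin-related protein thought not to bind lactose, had 2538 normalised counts in the MCAO hemisphere, 2664 in the contralateral library and 3104 in the control. Its ratio was 0.818 to the control (0.774 to 0.864) and 0.953 to the contralateral library (0.901 to 1.01), where the interval held 1. The contralateral library was itself at 0.858 times the control (0.816 to 0.902). Lgals2, Lgals12 and Grifin, a galectin-like protein of the lens, were below the filter, with 10.6 to 18.8 normalised counts in any library. Lgals4, Lgals6 and Lgals7 had no row under these symbols.

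Among the partners of galectins, a list of 30 surface and matrix glycoproteins described as galectin ligands or receptors was followed. It had 9 genes higher than in both right hemispheres and none lower, beside the 2.58% and 0.517% of all genes given above. Like the enzyme and lysosome lists below, it was written with earlier results of these data known, so its share is a description. The list's median log2 difference was 0.35 for the control comparison and 0.37 for the contralateral one. Cd44, the hyaluronan receptor to which galectin-9 can bind, had 1016 normalised counts in the MCAO hemisphere, 130 in the contralateral library and 130 in the control, a ratio of 7.83 to the control (6.52 to 9.47). The fibronectin gene Fn1, a matrix glycoprotein, had 1217, 171 and 115 in the same order of libraries. Havcr2, encoding the galectin-9 receptor TIM-3, had 386 normalised counts in the MCAO hemisphere, 58.6 in the contralateral library and 64.9 in the control. Its ratio was 5.95 to the control (4.56 to 7.85) and 6.59 to the contralateral library (5.04 to 8.72), so ligand and receptor transcripts were both higher in the MCAO hemisphere.

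Myeloid receptor genes made up further called partners. Trem2, a microglial receptor for which galectin-3 has been described as a ligand, had 822 normalised counts in the MCAO hemisphere, 143 in the contralateral library and 124 in the control. Ptprc, encoding the leukocyte surface phosphatase CD45, had 260, 76.3 and 32.9, and Itgam, encoding the integrin chain CD11b, had 1093, 333 and 349. Itgam is also in the microglia marker list below, and is the one gene of the 30 that a marker list holds. The remaining called partners, Spn, Cspg4 and Itga5, named after their values were seen, had ratios to the control of 3.07, 2.30 and 2.23. The other 21 partners had log2 differences between -0.43 and 0.97 from the control and between -0.66 and 1.25 from the contralateral library. Against the contralateral library alone 11 of the 30 were at least 2-fold higher, beside 3.18% of all genes. Near the middle were the lysosomal membrane glycoproteins Lamp1, with 22944, 20295 and 18776 normalised counts, and Lamp2, with 4664, 3140 and 3524. Mertk, an engulfment receptor that galectin-3 can bind, was chosen after its values were seen, with 956, 1126 and 1213.

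Enzymes that branch, extend or cap glycans help to set how many galectin ligands a cell shows. A list of 21 genes of this kind, not all of them N-glycan enzymes, had no gene counted as higher or lower. This stood beside 2.58% and 0.517% of all genes, so few calls would be seen at the background shares too. The list's median log2 difference was -0.23 in the control comparison and -0.0027 in the contralateral one. Gcnt2 and Mgat4a, which lay closest to the median, had 730 and 1556 counts in the MCAO library, 782 and 1335 in the contralateral library and 867 and 1823 in the control. Against the control alone 2 enzymes were at least 2-fold lower, beside 1.25% of all genes, and they are named here after their values were seen. Mgat5, whose product makes the highly branched N-glycans that galectin-3 prefers, had 232, 360 and 517 normalised counts and was at 0.448 times the control (0.379 to 0.529). St6gal2, a sialyltransferase, had 55.3, 63.9 and 122. Mgat5 was lowest in the MCAO hemisphere and intermediate in the contralateral library. St6gal2 had the same order, but its MCAO and contralateral values lay close together and no interval is given for them.

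Of 22 genes of the response to damaged lysosomes, in which galectin-3 and galectin-8 take part, Trim16 was the one counted as higher, and none was lower, beside 2.58% and 0.517% of all genes. At this length of list such counts are near the background. Trim16, a ubiquitin ligase described as a partner of galectin-3 in this response, had 61.2 normalised counts in the MCAO hemisphere, 23.1 in the contralateral library and 14.5 in the control. Its ratio to the control was 4.21 (2.33 to 8.05), from 52 and 15 reads, and its ratio to the contralateral library was 2.65 (1.63 to 4.42). With a pseudocount of 20 it was no longer counted, since the contralateral difference fell under 2-fold. The list's median log2 difference was 0.13 in the control comparison and -0.026 in the contralateral one. The transcription factor gene Tfe3 and the cofactor gene Ubxn6, near the median, had 1233 and 2431 counts in the MCAO library, 1270 and 2479 in the contralateral library and 1123 and 2233 in the control.

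**Figure D3:**
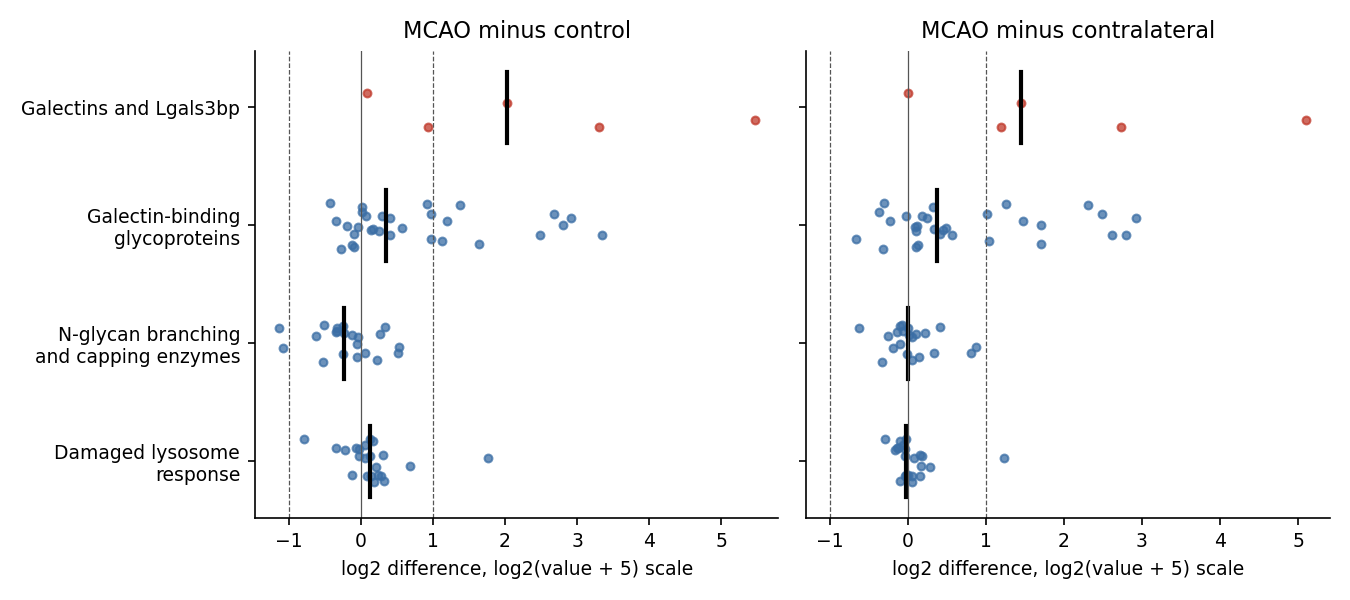
Log2 differences of the MCAO hemisphere from the control (left panel) and the contralateral library (right panel), 1 point per gene past the filter, with a black bar at each list's median and dashed lines at 2-fold. The galectins (red) have medians of 2.02 and 1.45, the 30 partner glycoproteins spread to the right of 0, and the genes of the glycan enzyme list and the lysosome response gather near 0.

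The genes nearest to each called galectin in both log2 differences were taken over the 3 libraries, by the larger of both gaps. Symbols starting with Gm and a digit, ending in Rik, or starting with Mir or Snor were left out. This holds for the nearest genes and for the counts within 0.25. For Lgals3 they were the interferon-inducible gene Ifi202b at a gap of 0.11, the macrophage scavenger receptor gene Msr1 at 0.56, the immune receptor gene Lilrb4a at 0.58 and the osteopontin gene Spp1 at 0.95. Just 1 gene lay within 0.25 of Lgals3. Gaps are on the log2(value + 5) scale, where the pseudocount shrinks differences of genes with few reads. Ifi202b had 4 contralateral and 2 control reads. Its plain ratios to these libraries were 87.5 and 160, against 38.2 and 50.9 for Lgals3. For Lgals1 the nearest were Ms4a6c, Fn1 and the cell division genes Cdk1 and Mki67, at gaps of 0.036, 0.064, 0.070 and 0.075, and 14 genes lay within 0.25. Ms4a6c had 10 contralateral and 5 control reads, and its plain ratios were 10.1 and 18.5, against 6.69 and 9.95 for Lgals1. For Lgals9 the nearest were the lysosomal protease gene Ctsh, the interferon-induced gene Ifit1, the mitochondrial protein gene Tspo and the serpin gene Serpina3f. Their gaps were 0.068, 0.069, 0.081 and 0.086, and 42 genes lay within 0.25. With 3 libraries such likeness is a description, and reads of Lilrb4a, Ms4a6c and Serpina3f may be shared with close relatives.

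Markers of several cell types were summed to show what else differed between these libraries. The 10 astrocyte markers, all measured, summed to 399366 normalised counts in the MCAO hemisphere, 356369 in the contralateral library and 355524 in the control, and Gfap was the one gene of the list counted as higher. Without Gfap the other 9 summed to 323317, 344167 and 349621, so the MCAO hemisphere was then lower, at 0.925 times the control. The 12 microglia markers summed to 24273, 10431 and 10350 in the same order, and 6 were counted as higher. The 12 macrophage and activated phagocyte markers summed to 12962.5, 1225 and 826, which was 15.7 times the control and 10.6 times the contralateral library. Without Spp1, the largest of them, the other 11 summed to 4226, 738 and 575, or 7.35 times the control and 5.72 times the contralateral library. Of 9 such genes past the filter 8 were counted as higher, among them Spp1 (8736, 487 and 251) and Cd68 (818, 147 and 92.0). Ms4a7, a macrophage marker below the filter, had 18.8 in the MCAO hemisphere, was listed at the minimum of 1 in the contralateral library and had 2.91 in the control.

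Of the 8 neutrophil markers 2 were measured, and they summed to 331, 111 and 87.2. Csf3r, the one past the filter, was counted as higher, at 314, 96.7 and 81.4, and S100a9 had 16.5, 14.2 and 5.81. None of the 8 lymphocyte markers had a row under its symbol. The 9 neuron markers summed to 164746, 169967 and 193374, the 7 oligodendrocyte markers to 157419, 103141 and 123619, and the 8 endothelial markers to 928, 598 and 768. None of these 24 genes was counted as higher or lower. The 10 mural and fibroblast markers, at 5412, 4875 and 5170, and the 6 ependymal and choroid plexus markers, at 8622, 14752 and 11348, had no counted gene either. Most of each ependymal and choroid plexus sum was 1 gene, Ttr, with 8192, 14272 and 10949, so these sums mainly follow Ttr. The cells that gave the galectin transcripts were not identified, and the part of the myeloid markers in the galectin differences was not tested.

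**Figure D4:**
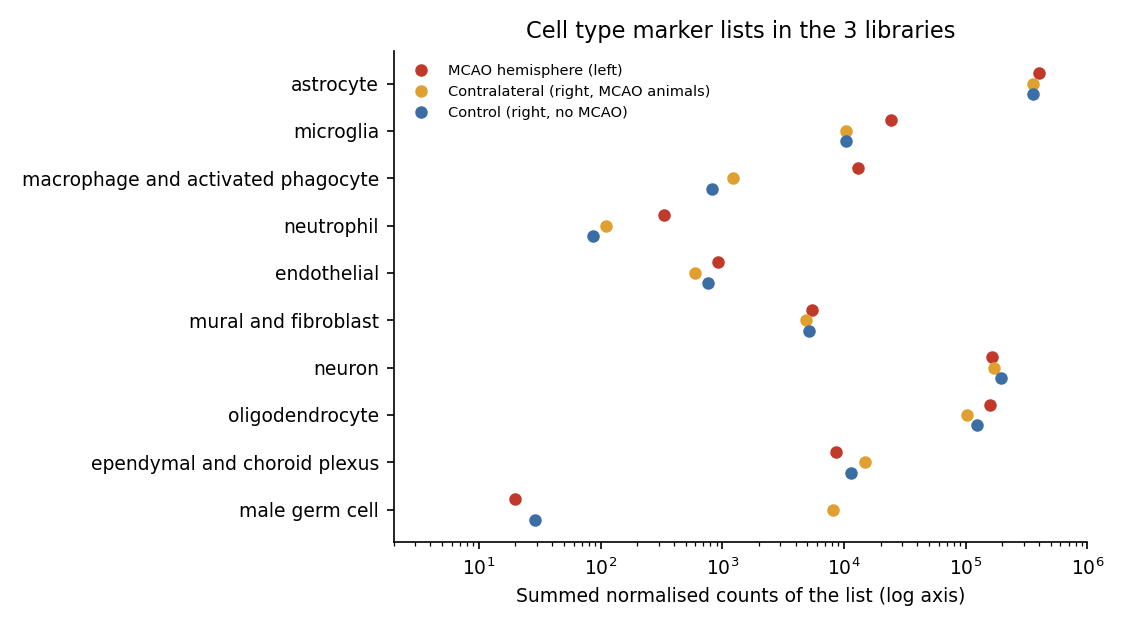
Summed normalised counts (log axis) of each cell type marker list in the 3 libraries, 1 point per library. The macrophage and activated phagocyte list is 15.7 times the control in the MCAO hemisphere (7.35 times without Spp1), the astrocyte list is 1.12 times the control (0.925 times without Gfap), and the male germ cell list stands out in the contralateral library.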

How the data were processed

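Ribosome-bound RNA of mouse brain hemispheres was sequenced in 3 libraries, 1 per group. The authors deposited 1 table of a normalised signal, in which the reads of each gene are scaled by a library's size factor. HISAT2 2.0.11, CASAVA 1.8, DESeq2, R 3.3.1, Partek 6.6 and the build mm10 are named, without roles, per the submitters' processing notes. Values below 1 were listed as 1, and the highest value of every gene was 10.6 or more.

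Whole reads were recovered from the step of each column, which was 1.18 normalised counts in the MCAO hemisphere, 0.887 in the contralateral library and 0.969 in the control. In each column 99.9% of values above 1 were whole within 0.1 read. With 1 library per group a count test has no residual degrees of freedom, and none was run. Differences, the filter and the 2-fold rule are as given with the results. They were tried on simulated counts that held changes larger than 2-fold and counting error only. That trial says nothing of variation between animals or pools, or of changes near 2-fold. Python 3.11.15, scipy 1.17.1 and pandas 2.3.3 were used.

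Symbols were matched to RefSeq (GRCm38.p6) for positions and promoters, and 15912 of 16610 were found. Exon lengths were not used, so levels are not compared between genes. The members and lists were chosen with earlier results of these data known. Named genes are the members, the 4 nearest in pattern to each called member, up to 6 called genes and the 2 nearest the median per related list, and the 2 highest and any listed at 1 per marker list. Some of these are not described. Alternatives were other pseudocounts, filters, scalings and call sizes.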

Additional observations from a re-analysis of the deposited data

How the results depend on the processing

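The 5 members' log2 differences were recomputed with a pseudocount of 1 or 20, with no filter, with a mean of at least 100, scaled by the recovered total of each library and centred on the median of all genes. Each of these 90 values differed from its main value by less than the width of the counting interval on that side, and none of at least 2-fold changed sign. The values under the filter settings are the main values by construction, since a filter only drops genes. Centring only subtracts the medians of all genes, which were -0.0027, -0.0020 and -0.0037. Only the pseudocounts and the scaling could thus move a member by more. A larger pseudocount shrinks the difference of Lgals3, whose values with a pseudocount of 20, 4.99 and 4.72, lie below the intervals of its plain ratios. Lgals3 ranged from 4.99 to 5.63 against the control and from 4.72 to 5.22 against the contralateral library, Lgals1 from 3.25 to 3.31 and 2.70 to 2.74, Lgals9 from 1.87 to 2.07 and 1.36 to 1.48, and Lgals3bp from 0.92 to 0.95 and 1.17 to 1.19. With 1.5-fold as the call size 4 members were counted as higher, beside 4.88% of all genes, with 3-fold 2, beside 1.34%, and against the control alone, an alternative added after the data were seen, 3. The marker sums without Gfap or Spp1 were also added then. In the damaged lysosome list the count of higher genes was 0 with a pseudocount of 20 and 0 with a mean of at least 100. Both lost Trim16, whose values were low. Against the control alone 2 N-glycan enzymes were counted as lower. The other 96 values for the member count and the lists stayed within 1.5 times or within the list's interval. No paired analysis was possible because each group has 1 library and the labels give no replicate numbers. Depth limits Lgals3 most, with 48 and 33 reads in the contralateral and control libraries.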

Other observations

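The nearest annotated neighbours of the galectin genes in RefSeq (GRCm38.p6) were also measured, with no test. Dlgap5, a mitotic spindle gene 1612 bases from Lgals3, had 38.8 normalised counts in the MCAO hemisphere, 23.1 in the contralateral library and 4.84 in the control. Nol12 and Pdxp, on either side of Lgals1, had 581 and 4803 in the MCAO hemisphere, 585 and 5288 in the contralateral library and 441 and 5727 in the control. Ksr1, beside Lgals9, had 696, 745 and 929 in the same order of libraries, and Nos2, on the other side of Lgals9, had no row under its symbol. Heatr1, 509 bases from Lgals8, had 381, 413 and 435, and Edaradd, on its other side, had 36.5, 20.4 and 23.2. Cant1 and Timp2, on either side of Lgals3bp, had 1819 and 8222 in the MCAO hemisphere, 1698 and 8724 in the contralateral library and 1600 and 10435 in the control. Of these 8 genes Dlgap5 alone exceeded 2-fold, MCAO hemisphere over control. Its control value of 4.84 is low, and its contralateral value of 23.1 exceeded that 2-fold as well. The MCAO hemisphere did not reach 2-fold over the contralateral library for Dlgap5.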
